A study of Mus musculus with 12 samples.

Results

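The response to estradiol was examined in the fraction of cultured mouse bone marrow that the labels call c-kit+ stem cells. It is represented by 6 of the 12 arrays of the series, chosen by their titles, with 3 arrays from treated and 3 from control cultures. Primary cultures of whole bone marrow came from female C57BL/6 mice aged 6 weeks. Treated cultures received 17β-estradiol (17βE), the main circulating estrogen, at 1 nM for 1 week, and the others are labelled control. The other 6 arrays hold the CD44+ fraction of such cultures, which the labels call stromal cells, again with 3 treated and 3 control arrays. The sources used here do not describe how the fractions were separated. The labels name no allele or transgene. Nor do they state if a replicate is a culture or an animal of its own, and every p-value therefore measures only the spread between these samples, which may be technical.

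Many of the genes described below are targets of NF-kappaB, a family of transcription factors made of Rel, Rela, Relb, Nfkb1 and Nfkb2. In resting cells inhibitor proteins of the IkappaB family hold these factors in the cytoplasm. Toll-like receptors and receptors for tumour necrosis factor and interleukin-1 release them, and the factors then switch on cytokines, adhesion molecules and their own inhibitors. In bone marrow the resulting cytokines act on blood cell formation and on the osteoclasts that resorb bone, and loss of estrogen is known for raising several of them. Estradiol itself acts mainly through the nuclear receptors Esr1 and Esr2.

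Levels are given on the log2 scale of RMA, a method that corrects background, normalizes the arrays to one another and summarises the probes of each probe set. A difference of 1 on this scale is a 2-fold change of the measured signal. Levels of different probe sets are not on a common scale, so changes are read between arrays for each gene. Where a level is set against probe sets of absent genes or a fixed value, it is only a rough guide to background. Array medians lay between 4.75 and 4.84 over the series. Precision is limited by the number of arrays.

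The labelled cell type was first set against its markers. Kit, which encodes the receptor c-kit, was at a background level on every array labelled c-kit+. One Kit probe set lay between 3.88 and 4.08 (mean 3.96) and the other between 3.54 and 3.74 (mean 3.65), and on the CD44+ arrays their means were 3.97 and 3.66. The 15 probe sets of Y-linked genes, which female mice lack, had means between 2.87 and 6.21 with a median of 3.35, and 14 of them lay at or below 4.3. Both Kit probe sets were thus within the range read from absent genes, in this fraction as in the other. Among further stem and progenitor markers, Slamf1 lay at 3.73 to 4.04, Myb at 4.17 to 4.72, Gfi1 at 3.21 to 3.77 and Mecom at 3.98 to 4.39. Procr at 9.05 to 10.46, Runx1 at 8.88 to 9.85 and Lmo2 at 10.50 to 11.00 were above that range.

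Markers of macrophages read well above that range on the same arrays. Adgre1, an adhesion receptor that defines mouse macrophages, lay at 13.41 to 13.74, Csf1r, the receptor for macrophage colony-stimulating factor, at 13.97 to 14.11, and Lyz2, a lysozyme, at 14.19 to 14.35. The levels of Mpeg1 were 13.70 to 14.22, those of Cd68 12.50 to 12.87 and those of C1qb 12.68 to 12.89. Not every member of the list was high, since Cd163 lay at 3.72 to 4.38 and Siglec1 at 5.50 to 5.89. Markers of mast cells, which also carry c-kit, were low, with Fcer1a at 3.31 to 3.53 and Mcpt4 at 3.56 to 3.70. Cpa3, a mast cell protease, read 3.78, 3.77 and 3.87 on control replicates 1, 2 and 3 and 6.31, 3.73 and 3.73 on the estradiol replicates, so that estradiol replicate 1 alone was raised. The brightest Cd44 probe set lay at 11.76 to 12.34, with a mean of 12.03 on these arrays and 12.22 on the CD44+ arrays. These levels go against the label, and the samples are called by it below only as a name. The marker genes in these 2 paragraphs were picked from the lists after their values were seen.

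**Figure D1:**
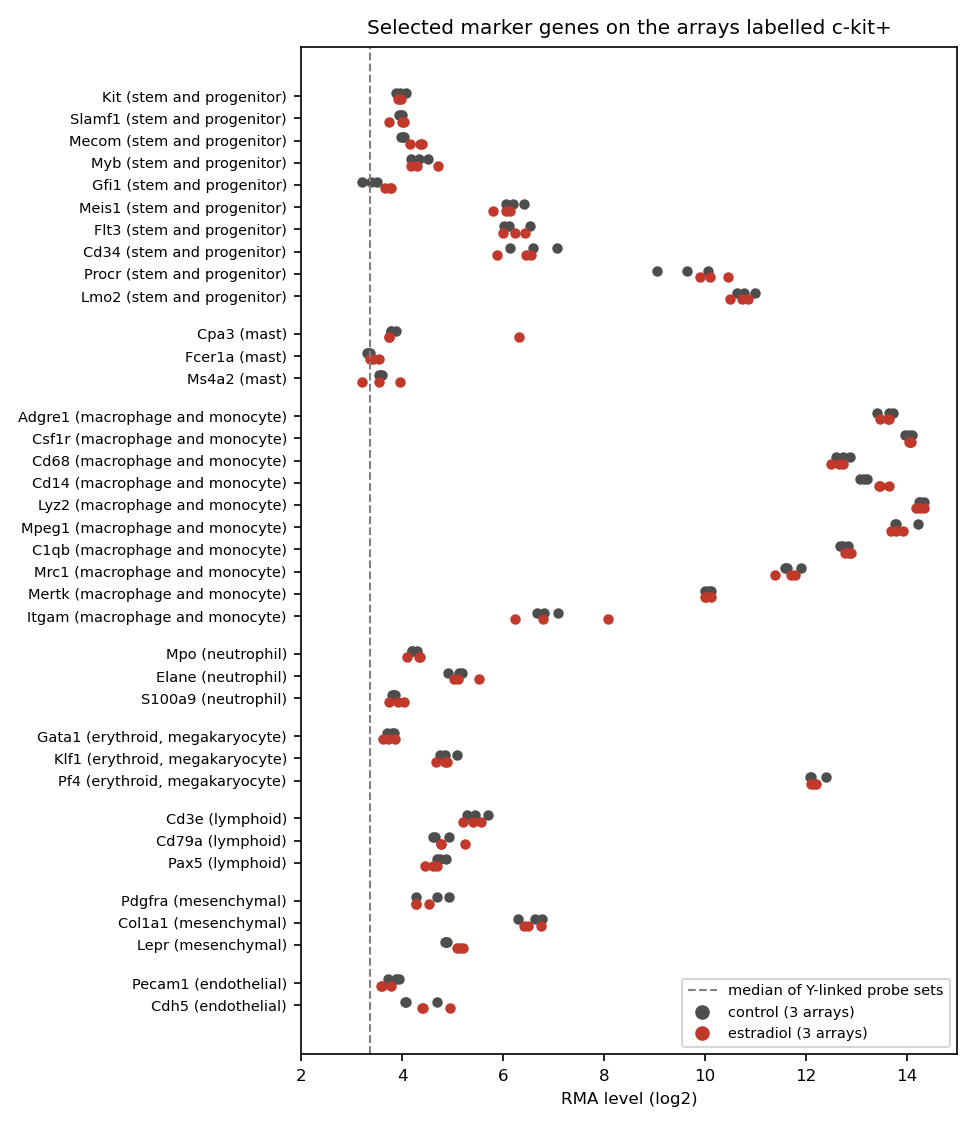
Levels (log2, RMA) of selected marker genes on the 6 arrays labelled c-kit+, 1 point per array, coloured by control or estradiol. Kit lies near 4 on all arrays while Adgre1, Csf1r and Lyz2 lie above 13. Both conditions overlap for Kit, Adgre1, Csf1r and Lyz2. Gfi1, Mecom, Fcer1a, Cd14 and Lepr are higher and Pax5 lower on all estradiol arrays. Over all genes 5.34% are separated upward and 2.47% downward.

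Inflammatory cytokines, surface molecules and NF-kappaB genes were among the genes that rose in estradiol cultures. Of 18193 genes tested, 32 rose (0.176%) and 1 fell (0.0055%) at an adjusted p under 0.05. An unadjusted p under 0.05 was reached upward by 558 genes (3.07%) and downward by 256 (1.41%). The 32 rises had a median of 1.01 on the log2 scale and ran from 0.70 to 2.66, and 16 of them were at least 1. Each of the 32 genes had its lowest estradiol array above its highest control array, with a gap between the groups of 0.31 to 1.65. Over all genes such a separation was met upward by 971 (5.34%) and downward by 449 (2.47%), and the median difference was 0.02. Of the 32 genes, 20 (62.5%) stand in the pathway lists described below and 12 in none; the lists, chosen with earlier results of these data known, hold 357 of the genes tested (1.96%), and this was not tested. Control means under 5, within the range of the Y-linked probe sets, were found for Il6, Il12b, Il23a and Ifnb1, and 21 of the 32 genes had a control mean of at least 8. Those of Csf2 (5.46) and Mthfs (5.69) also lay below the highest Y-linked mean of 6.21. Averaged over the 32 genes, the control arrays stood at 8.44, 8.40 and 8.31 and the estradiol arrays at 9.35, 9.61 and 9.47.

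Cell markers and RNA quality were set beside this result. The 21 measured macrophage and monocyte markers averaged 10.93 to 11.00 on control and 10.95 to 11.12 on estradiol arrays, and none passed. Single members varied more, as C1qa read 10.51, 10.92 and 8.54 on control and 10.55, 10.94 and 10.67 on estradiol arrays. Control replicate 3 correlated with the other arrays at 0.987 to 0.992, and those with one another at 0.994 to 0.996. The 12 dendritic cell markers averaged 5.63 to 5.73 on control and 5.82 to 5.95 on estradiol arrays, with no overlap, although none passed. Of them Cd83, Fscn1 and Batf3 had separate groups (25.0% of the list, against 5.34% of all genes). Xcr1 (3.28 to 3.66), Cd209a (4.01 to 4.35) and Ccr7 (3.55 to 4.05) stayed in the background range on all arrays. These last were picked after their values were seen and do not stand for the whole list. Whether the shift of the dendritic cell markers has a part in the result was not tested. In such bulk samples, fewer cells of a type and less RNA per cell cannot be told apart. RNA quality, read as the 3′ minus 5′ signal of the Gapdh control probe sets, was 5.35, 5.23 and 4.62 on control and 6.17, 4.59 and 4.23 on estradiol arrays, so the groups overlapped. With that measure as a covariate 37 genes passed, 31 of the 33 among them.

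**Figure D2:**
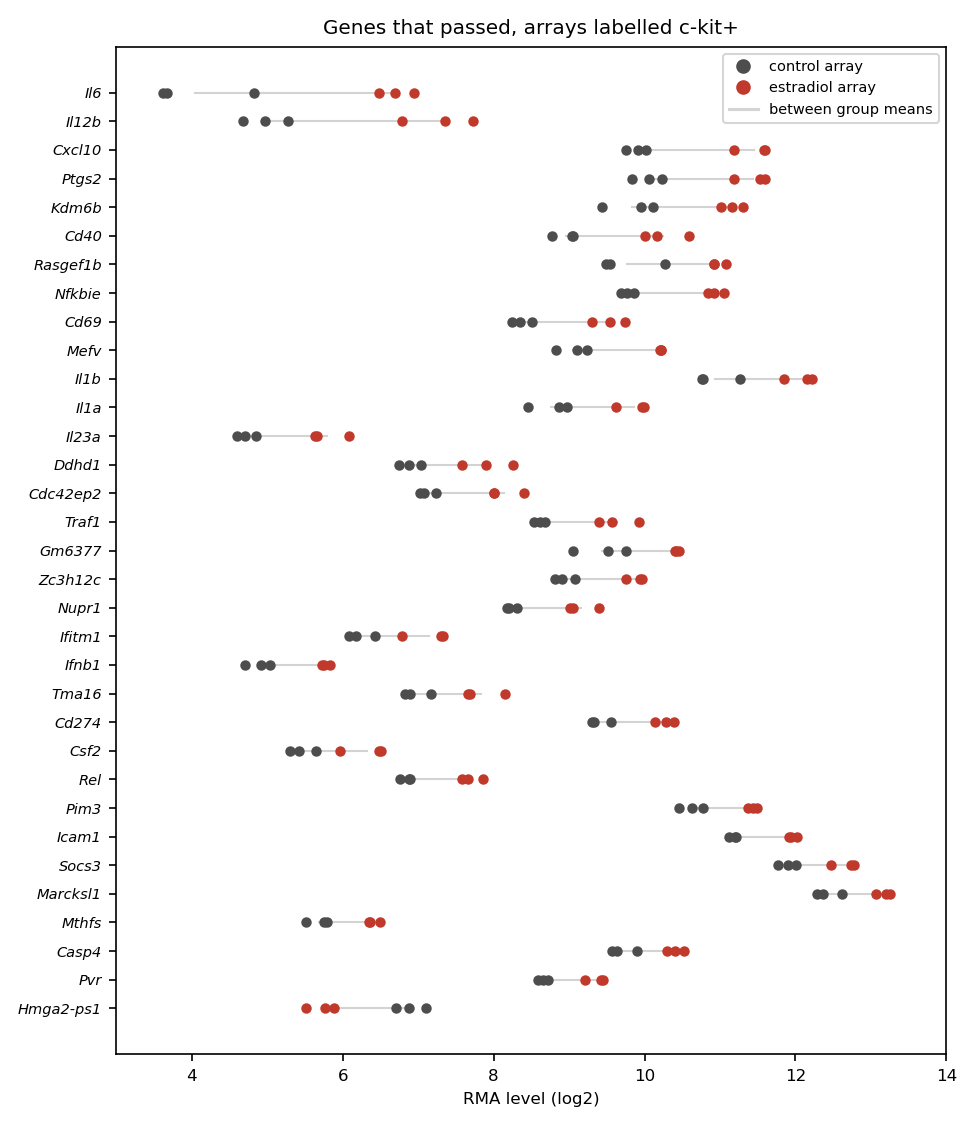
Level (log2, RMA) of each of the 33 genes that passed, on the 3 control and 3 estradiol arrays labelled c-kit+, ordered by the size of the difference. In all 33 genes the groups do not overlap, and Hmga2-ps1 alone is lower with estradiol.

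Among the secreted proteins, 7 inflammatory cytokines and 1 chemokine rose. Il6, a cytokine of acute inflammation that also promotes osteoclast formation, read 3.67, 4.83 and 3.61 on control replicates 1, 2 and 3 and 6.48, 6.69 and 6.94 on estradiol replicates 1, 2 and 3. Control replicate 2 was the highest of its group, and all 3 control arrays lay within the range of the Y-linked probe sets. The rise was 2.66 (SE 0.27, adjusted p = 0.000887), and since the control level is not told apart from background it gives no firm fold. Il12b, the p40 subunit that interleukin-12 and interleukin-23 share, went from 4.68, 4.98 and 5.27 to 6.78, 7.73 and 7.36, a rise of 2.32 (SE 0.22, adjusted p = 0.000887). Il23a, which encodes the p19 subunit of interleukin-23, read 4.70, 4.60 and 4.86 on control and 5.66, 6.09 and 5.64 on estradiol arrays. Its rise was 1.08 (SE 0.14, adjusted p = 0.00551), so the signals of both subunits of interleukin-23 rose. All Il23a arrays lay within the range of the Y-linked probe sets, although above 4.3, which 14 of those 15 did not exceed. Its level is therefore not firmly told apart from background in either group, and the rise gives no firm fold.

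Both interleukin-1 genes rose from control levels above the background range. Il1b read 11.26, 10.76 and 10.78 on control and 11.85, 12.22 and 12.16 on estradiol arrays, a rise of 1.14 (SE 0.16, adjusted p = 0.00951). Il1a read 8.87, 8.97 and 8.46 and 9.63, 9.99 and 9.96, a rise of 1.09 (SE 0.16, adjusted p = 0.0124). These cytokines act through 1 receptor and are strong inducers of NF-kappaB. Csf2, which encodes granulocyte-macrophage colony-stimulating factor, read 5.30, 5.65 and 5.42 on control and 5.96, 6.48 and 6.51 on estradiol arrays. Its rise of 0.86 (SE 0.15, adjusted p = 0.0496) was the one closest to the threshold among the genes that passed. Ifnb1, the type I interferon beta, read 4.92, 5.04 and 4.71 and 5.83, 5.76 and 5.73, with a rise of 0.88 (SE 0.11, adjusted p = 0.0049) and the tightest estradiol group among these cytokines. All Ifnb1 arrays also lay within the range of the Y-linked probe sets, so its level is not firmly told apart from background in either group.

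In all, 7 of the 22 inflammatory cytokines measured rose and none fell. Over all genes 0.176% rose. The median difference of the 22 was 0.68, against 0.02 over all genes. In 14 of the 22 (63.6%) the groups did not overlap upward, against 5.34% of all genes. Several members short of the threshold were also higher on all estradiol arrays. Tnfsf9, the ligand of the costimulatory receptor 4-1BB, read 11.06, 10.48 and 10.46 on control and 11.53, 11.75 and 11.70 on estradiol arrays, a difference of 0.99 (SE 0.19, adjusted p = 0.065). Lif, a cytokine of the interleukin-6 family, differed by 0.72 (SE 0.14, adjusted p = 0.0643) and Tnf, the tumour necrosis factor, by 0.64 (SE 0.14, adjusted p = 0.17). The Lif arrays, at 4.62 to 5.51, all lay within the range of the Y-linked probe sets. Il10, which damps inflammation, differed by 1.20 (SE 0.32, adjusted p = 0.362), with control replicate 1 at 7.52 close to the lowest estradiol value of 7.70.

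Chemokines attract white blood cells, and 1 of them rose. Cxcl10, which draws T cells and is induced by interferons and NF-kappaB, read 10.01, 9.91 and 9.76 on control and 11.18, 11.60 and 11.58 on estradiol arrays. It rose by 1.56 (SE 0.15, adjusted p = 0.000887), or 2.95-fold, and was the only one of 14 CXC chemokines to pass. The list's median difference was 0.20 (0.16 to 0.49 over the alternatives). Of its members, 5 (35.7%) had separate groups upward, against 5.34% of all genes. Among those, the neutrophil attractants Cxcl3 and Cxcl1 differed by 0.96 (SE 0.27, adjusted p = 0.434) and 0.43 (SE 0.12, adjusted p = 0.4), and Cxcl11 by 0.57 (SE 0.15, adjusted p = 0.37). Every Cxcl11 array, at 4.40 to 5.56, lay within the range of the Y-linked probe sets. None of 17 CC chemokines passed. Their median difference was 0.15, with 0.06 when control replicate 1 was left out and 0.37 among brighter genes. Only Ccl3, a macrophage attractant, had separate groups (5.9% of the list, against 5.34% of all genes), with a difference of 0.56 (SE 0.16, adjusted p = 0.437).

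None of 19 Toll-like receptors, coreceptors and related sensors passed, with a median difference of 0.12 (0.04 to 0.21 over the alternatives). Tlr2, a sensor of bacterial lipoproteins, read 11.86, 12.06 and 12.06 on control and 12.59, 12.71 and 12.50 on estradiol arrays, a difference of 0.60 (SE 0.12, adjusted p = 0.0938). Clec4e, a sensor of mycobacterial and dead-cell products, differed by 0.82 (SE 0.19, adjusted p = 0.181), and Cd14, the coreceptor for lipopolysaccharide, by 0.38 (SE 0.11, adjusted p = 0.422). Separate groups upward were seen in 6 of the 19 (31.6%), against 5.34% of all genes. Of 24 receptors for inflammatory cytokines none passed, and the median over the list was 0.04. Only Il10ra, a subunit of the interleukin-10 receptor, had separate groups (4.2% of the list), at 0.48 (SE 0.15, adjusted p = 0.637).

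Traf1 was the one signal adaptor that rose. It encodes an adaptor of tumour necrosis factor receptors and is itself an NF-kappaB target. Its levels were 8.54, 8.68 and 8.61 on control and 9.39, 9.93 and 9.57 on estradiol arrays, a rise of 1.02 (SE 0.12, adjusted p = 0.0049). The 22 adaptors and kinases measured had a median difference of 0.07, with 6 members separated upward (27.3%) and 2 downward. Over all genes the shares were 5.34% upward and 2.47% downward. Malt1, a scaffold and protease of NF-kappaB signalling, differed by 0.94 (SE 0.21, adjusted p = 0.161). Traf5, another adaptor of the receptor family, differed by -0.33 (SE 0.13, adjusted p = 0.924) and was lower on all estradiol arrays.

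Genes of the NF-kappaB family itself were separated between the groups. All 10 measured subunits and inhibitors had every estradiol array above every control array, against 5.34% of all genes. Their median difference was 0.59, and 2 of them passed, while 0.176% of all genes rose. Nfkbie, which encodes IkappaB epsilon, had the smallest p of all genes. It read 9.86, 9.77 and 9.69 on control and 10.93, 11.05 and 10.84 on estradiol arrays, a rise of 1.17 (SE 0.11, adjusted p = 0.000887) or 2.25-fold. The spread within each group was small beside the distance between them. Rel, the subunit c-Rel that drives Il12b and Il23a in myeloid cells, read 6.89, 6.88 and 6.76 and 7.65, 7.58 and 7.87, a rise of 0.86 (SE 0.12, adjusted p = 0.00771).

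The other 8 did not pass. Nfkb2, the p100/p52 subunit, read 6.86, 6.76 and 6.65 on control and 7.18, 7.54 and 7.24 on estradiol arrays, a difference of 0.56 (SE 0.12, adjusted p = 0.114). Bcl3, a nuclear IkappaB protein, differed by 0.68 (SE 0.14, adjusted p = 0.12). The remaining members ran from 0.10 for Nfkbia, the main inhibitor, which lay near the top of the scale on all arrays (13.72 to 13.86), to 0.72 for Relb. Control replicate 3 was the lowest array of Relb and Rela, at 6.80 and 9.51.

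Promoter sequence was available for 27 of the 32 genes that rose. The kappaB motif, the consensus that NF-kappaB dimers bind, was searched on both strands from 250 bases before to 50 bases after the transcription start. It was present in a promoter of 8 of the 27 genes (29.6%), namely Nfkbie, Cxcl10, Il6, Ifnb1, Rel, Pim3, Zc3h12c and Casp4, and in 1689 of 14452 tested genes with a promoter (11.7%). The 170 bases before the start are shown for 4 of the genes above, because these hold a kappaB match in a gene whose level rose; capitals mark the matches. They are written 5′ to 3′ on the gene's own strand, from RefSeq on GRCm38.p6: Il6 at chr5:30012944-30013113 on the plus strand, Cxcl10 at chr5:92348890-92349059 on the minus strand, Nfkbie at chr17:45555530-45555699 on the plus strand and Rel at chr11:23770970-23771139 on the minus strand.
Il6: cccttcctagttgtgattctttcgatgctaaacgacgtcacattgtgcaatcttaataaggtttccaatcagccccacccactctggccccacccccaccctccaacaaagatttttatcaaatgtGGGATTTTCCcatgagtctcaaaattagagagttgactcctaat
Cxcl10: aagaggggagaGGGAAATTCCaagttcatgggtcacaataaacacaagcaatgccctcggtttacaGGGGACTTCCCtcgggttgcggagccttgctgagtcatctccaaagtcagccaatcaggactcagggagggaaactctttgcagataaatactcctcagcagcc
Nfkbie: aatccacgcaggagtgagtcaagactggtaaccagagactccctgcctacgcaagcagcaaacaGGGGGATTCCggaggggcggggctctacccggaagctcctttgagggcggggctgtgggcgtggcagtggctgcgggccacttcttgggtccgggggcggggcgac
Rel: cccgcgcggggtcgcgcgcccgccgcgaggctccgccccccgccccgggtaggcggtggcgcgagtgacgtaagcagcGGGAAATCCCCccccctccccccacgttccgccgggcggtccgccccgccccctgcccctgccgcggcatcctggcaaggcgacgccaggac

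Cxcl10 has a pair of marked stretches and each of the other promoters shown has 1. A stretch of 11 bases holds matches that overlap. Further motifs were searched in the same windows on both strands, and they may overlap one another. TGANTCA, the AP-1 consensus, was in the promoters of Nfkbie, Cxcl10, Il6 and Il1a (14.8% of the 27, against 7.54% of tested genes). The core of the interferon-stimulated response element, bound by interferon regulatory factors, was in that of Cxcl10 alone (3.7% against 3.63%). TATAAA was in those of Ifnb1, Icam1, Il1b and Il1a (14.8% against 11.5%). The full palindromic estrogen response element was in 0 of the 27 and in 5 of the 14452 (0.0346%). A match is a run of letters and not evidence of binding, and these shares were not tested.

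Among the inhibitors that limit the inflammatory response, 1 rose. Socs3, which blocks signalling by interleukin-6, read 12.003, 11.77 and 11.90 on control and 12.77, 12.73 and 12.48 on estradiol arrays, a rise of 0.77 (SE 0.14, adjusted p = 0.0469). It was the only one of 17 feedback inhibitors to pass, and the median difference was 0.33. Separate groups upward were found in 8 of the 17 (47.1%), against 5.34% of all genes. Tnip1, a partner of the ubiquitin-editing enzyme A20, differed by 0.73 (SE 0.15, adjusted p = 0.0983), and Tnfaip3, which encodes A20, by 0.53 (SE 0.14, adjusted p = 0.359). Of 10 MAP kinase phosphatases, which switch off stress kinases, none passed and the median was 0.35. Dusp4 read 9.41, 9.25 and 9.54 on control and 10.11, 10.20 and 10.17 on estradiol arrays, a difference of 0.76 (SE 0.14, adjusted p = 0.0643). Dusp2 differed by 1.10 (SE 0.33, adjusted p = 0.494) while Dusp6, a phosphatase of ERK, differed by -0.71 (SE 0.27, adjusted p = 0.879), with groups that overlapped.

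Immediate early transcription factors, which relay signals within the first wave of gene activation, did not pass. All 17 AP-1 and small Maf factors had a difference above 0, as had 55.1% of all genes, with a median of 0.24, and 3 of the 17 (17.6%) had separate groups upward, against 5.34% of all genes. Maff read 8.89, 8.41 and 9.40 on control and 9.68, 9.79 and 9.90 on estradiol arrays, a difference of 0.89 (SE 0.23, adjusted p = 0.299). Fosb and Junb differed by 1.20 (SE 0.47, adjusted p = 0.924) and 0.97 (SE 0.38, adjusted p = 0.931), and their groups overlapped. The 18 Egr, Nr4a and Klf genes had a median of 0.42, and 17 were above 0. Of the 18, 5 (27.8%) had separate groups upward, beside the same 5.34% of all genes. Csrnp1, a nuclear factor induced by growth signals, differed by 1.06 (SE 0.20, adjusted p = 0.0741) and Nr4a1, an orphan nuclear receptor, by 0.90 (SE 0.23, adjusted p = 0.299).

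Genes that interferons induce were looked at beside Ifnb1. None of the 28 genes in the list of IRF, STAT and interferon-induced genes passed, and their median difference was 0.19. Separate groups upward were met by 5 of the 28 (17.9%), against 5.34% of all genes. Cxcl10 and Ifitm1, which interferons also induce and which stand outside that list, rose by 1.56 (SE 0.15, adjusted p = 0.000887) and 0.91 (SE 0.16, adjusted p = 0.0442), as did a probe set shared by Isg15 and another gene, by 1.08 (SE 0.18, adjusted p = 0.0482 over all probe sets). Rsad2, which encodes the antiviral protein viperin, read 12.31, 12.23 and 12.57 on control and 12.96, 13.08 and 13.47 on estradiol arrays, a difference of 0.80 (SE 0.16, adjusted p = 0.102). Oasl1 differed by 0.88 (SE 0.19, adjusted p = 0.143). Ifit1 read 8.01, 8.55 and 6.91 and 8.70, 9.05 and 9.26, a difference of 1.18 (SE 0.34, adjusted p = 0.458), with control replicate 3 well below the others of its group.

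Costimulatory and activation molecules of the cell surface gave 4 rises. Cd40, the receptor for CD40 ligand, read 9.03, 9.06 and 8.78 on control and 10.16, 10.59 and 10.00 on estradiol arrays, a rise of 1.29 (SE 0.16, adjusted p = 0.0049) or 2.45-fold. Cd69, an early activation antigen, read 8.50, 8.24 and 8.35 and 9.55, 9.74 and 9.31, a rise of 1.17 (SE 0.16, adjusted p = 0.00697). Both differences were several times the spread within the groups. Cd274, which encodes the inhibitory ligand PD-L1, went from 9.55, 9.33 and 9.31 to 10.13, 10.29 and 10.38, a rise of 0.87 (SE 0.12, adjusted p = 0.00697). Icam1, the adhesion molecule that binds LFA-1, read 11.19, 11.21 and 11.12 and 11.95, 12.02 and 11.91, and its rise of 0.79 (SE 0.10, adjusted p = 0.00619) came with the least spread within the groups of these 4.

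These were 4 of 21 costimulatory and activation molecules, while 0.176% of all genes rose. Their median difference was 0.21 (0.17 to 0.81 over the alternatives, the highest among members at or above the median level of all genes). Separate groups upward were met by 9 of the 21 (42.9%), against 5.34% of all genes. Cd83, a marker of activated antigen-presenting cells, differed by 0.86 (SE 0.21, adjusted p = 0.27) and Icosl, the ligand of ICOS, by 0.56 (SE 0.12, adjusted p = 0.114). Among the 11 genes of MHC class II presentation none passed and none had separate groups, with a median of 0.16 that was 0.02 when control replicate 3 was left out. H2-Aa, an MHC class II chain, read 10.00, 10.18 and 8.84 on control and 10.31, 10.57 and 9.83 on estradiol arrays, where control replicate 3 and estradiol replicate 3 were each the lowest of their group.

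Ptgs2, the inducible cyclooxygenase COX-2 that starts prostaglandin synthesis, rose as well. It read 9.83, 10.06 and 10.23 on control and 11.18, 11.53 and 11.60 on estradiol arrays, a rise of 1.40 (SE 0.16, adjusted p = 0.00269) or 2.63-fold. No other of the 16 genes of prostaglandin synthesis and reception passed, and their median was 0.07. Ptgir, the prostacyclin receptor, differed by 0.58 (SE 0.13, adjusted p = 0.177) and Ptger4, a receptor for prostaglandin E2, by 0.48 (SE 0.18, adjusted p = 0.895), both with separate groups. With Ptgs2, 3 of the 16 (18.8%) had separate groups upward, against 5.34% of all genes. The 20 antimicrobial and acute-phase genes had a median of 0.36 (0.22 when control replicate 1 was left out), and none passed. Arg2, a mitochondrial arginase, came nearest, at 4.71, 5.24 and 4.67 on control and 5.75, 6.11 and 5.79 on estradiol arrays, a difference of 1.01 (SE 0.18, adjusted p = 0.0519). These Arg2 levels all lay within the range of the Y-linked probe sets. Acod1, the enzyme that makes itaconate, had the largest difference of the list, 1.51 (SE 0.34, adjusted p = 0.179), with control arrays spread from 10.01 to 11.25.

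Inflammasome genes, which process interleukin-1, gave 2 rises among 10 measured, while 0.176% of all genes rose. Mefv, which encodes pyrin, read 9.24, 8.83 and 9.10 on control and 10.21, 10.22 and 10.22 on estradiol arrays, a rise of 1.16 (SE 0.16, adjusted p = 0.00735); the estradiol arrays were almost equal. Casp4, the caspase that senses intracellular lipopolysaccharide, read 9.57, 9.64 and 9.90 and 10.30, 10.53 and 10.40, a rise of 0.71 (SE 0.12, adjusted p = 0.0387). Nlrp3, the sensor of the best-known inflammasome, differed by 0.52 (SE 0.11, adjusted p = 0.114), and the list's median was 0.06. Kdm6b, a demethylase that removes the repressive mark H3K27me3, was the only one of 12 H3K27 methylation enzymes to pass. It read 10.11, 9.96 and 9.44 on control and 11.02, 11.31 and 11.16 on estradiol arrays, a rise of 1.32 (SE 0.18, adjusted p = 0.00697), beside a list median of -0.01.

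**Figure D3:**
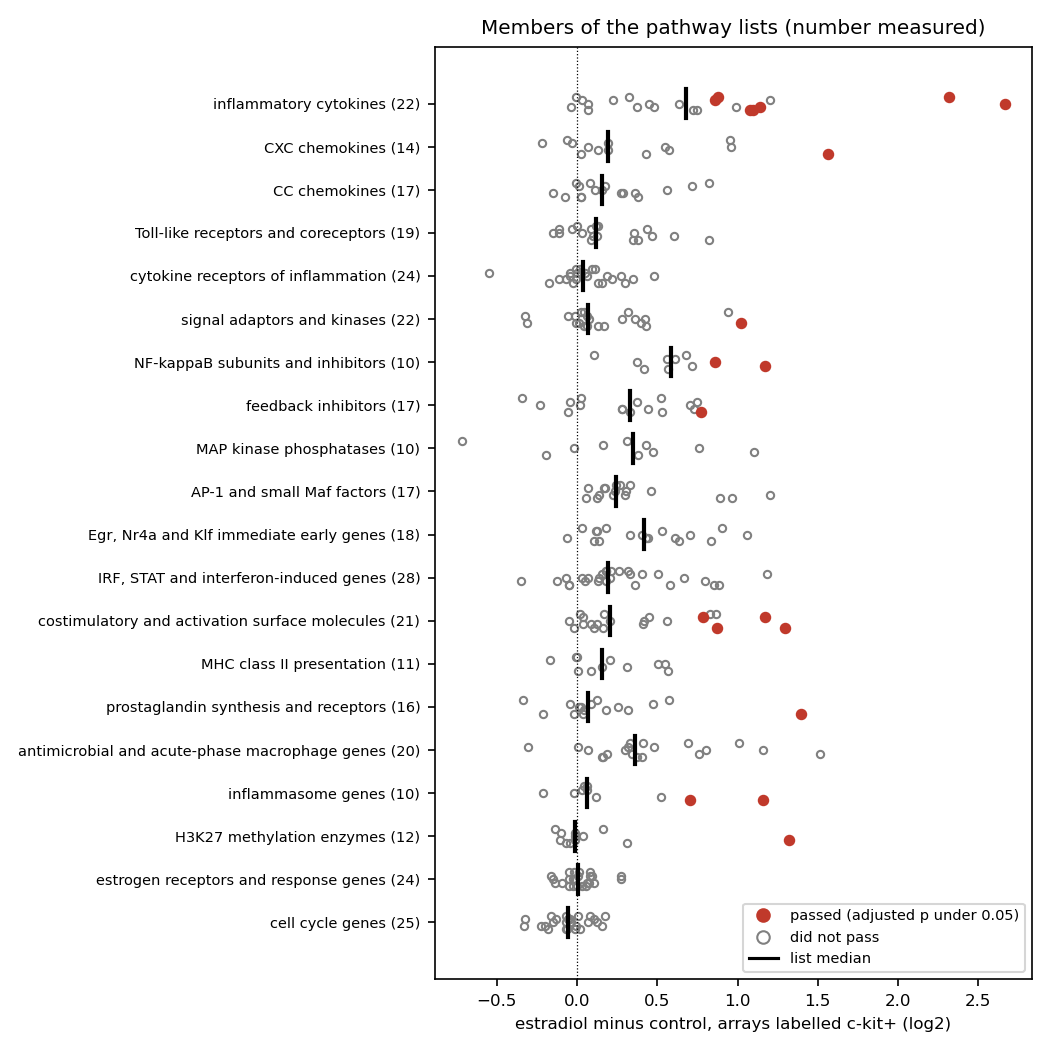
Difference between estradiol and control (log2) of every measured member of the 20 pathway lists on the arrays labelled c-kit+, 1 point per gene, with those that passed marked. Members that passed lie mainly among the inflammatory cytokines (7) and the surface molecules (4), and none lies among the estrogen or cell cycle genes.

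Estrogen receptors and genes known to respond to estrogen in other tissues did not pass. The 24 measured had a median difference of 0.00, none had separate groups, and the values ran from -0.16 to 0.28. Esr1, the receptor ER alpha, read 7.66, 7.84 and 7.87 on control and 7.58, 7.65 and 8.24 on estradiol arrays, with estradiol replicate 3 the highest. Esr2 lay at 4.07 to 4.62, Gper1 at 3.72 to 4.12 and Pgr, the progesterone receptor that Esr1 induces in reproductive tissue, at 3.70 to 3.88, all in the background range. Greb1, another estrogen-induced gene, lay at 4.16 to 4.71. The 95% interval of the difference was -0.30 to 0.37 for Esr1 and -0.18 to 0.34 for Pgr. Of 25 cell cycle genes none passed and the median was -0.05. Their groups were separate downward in 3 and upward in 0, against 2.47% and 5.34% of all genes. Cdk1, the kinase that starts mitosis, was 1 of the 3 and differed by -0.33 (SE 0.14, adjusted p = 0.999). Kif11, a spindle motor, was another, at -0.32 (SE 0.12, adjusted p = 0.859).

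The 10 lists of cell markers held no gene that passed. Their median differences were -0.01 for stem and progenitor cells, 0.10 for mast cells and basophils, 0.01 for macrophages and monocytes, 0.13 for dendritic cells and 0.06 for neutrophils. The medians were 0.01 for erythroid cells and megakaryocytes, 0.12 for lymphoid cells, 0.05 for mesenchymal cells and osteoblasts, 0.03 for adipocytes and -0.02 for endothelial cells. Pdgfrb, a mesenchymal receptor, spread from 3.8 to 6.1 over the arrays with overlapping groups.

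A further 12 of the 32 genes that rose stand in none of the lists. Rasgef1b, an exchange factor for Ras-family proteins that is induced in activated macrophages, read 10.27, 9.49 and 9.54 on control and 10.93, 11.08 and 10.92 on estradiol arrays, a rise of 1.21 (SE 0.21, adjusted p = 0.0484). Ddhd1, a phospholipase, rose by 1.03 (SE 0.16, adjusted p = 0.0179) and Cdc42ep2, an effector of the GTPase Cdc42, by 1.03 (SE 0.15, adjusted p = 0.0145). The predicted gene Gm6377 read 9.75, 9.51 and 9.05 and 10.42, 10.46 and 10.40, a rise of 0.99 (SE 0.16, adjusted p = 0.0226). Zc3h12c, an RNA-binding relative of the feedback inhibitor Zc3h12a, rose by 0.96 (SE 0.15, adjusted p = 0.0156). Nupr1, a nuclear protein induced by stress, read 8.30, 8.17 and 8.21 on control and 9.02, 9.39 and 9.05 on estradiol arrays, a rise of 0.93 (SE 0.13, adjusted p = 0.00785). Ifitm1, an interferon-induced membrane protein, rose by 0.91 (SE 0.16, adjusted p = 0.0442).

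The remaining 5 are of mixed function. Tma16, a factor of ribosome assembly, rose by 0.87 (SE 0.14, adjusted p = 0.0226) and Pim3, a serine/threonine kinase, by 0.81 (SE 0.12, adjusted p = 0.00951). Marcksl1, an actin-binding substrate of protein kinase C, read 12.62, 12.37 and 12.29 and 13.06, 13.26 and 13.20, a rise of 0.75 (SE 0.13, adjusted p = 0.0469). Mthfs, an enzyme of folate metabolism, rose by 0.71 (SE 0.12, adjusted p = 0.023), and Pvr, the adhesion molecule CD155, by 0.70 (SE 0.10, adjusted p = 0.0103), the smallest rise of the 32. Trim13 and Orai2 lay just short of the threshold, with differences of 0.81 (SE 0.15, adjusted p = 0.0509) and 0.79 (SE 0.14, adjusted p = 0.0509).

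Only Hmga2-ps1, annotated as a pseudogene of Hmga2, fell in the main fit. It read 7.10, 6.70 and 6.88 on control and 5.77, 5.52 and 5.89 on estradiol arrays, a difference of -1.17 (SE 0.16, adjusted p = 0.00697), and its single probe set may share signal with near-identical copies. Txnip, an inhibitor of thioredoxin that is sensitive to glucose, read 10.38, 10.56 and 10.56 and 9.81, 9.67 and 9.44, a difference of -0.86 (SE 0.16, adjusted p = 0.0519) that did not pass. Btla, an inhibitory receptor of lymphocytes and myeloid cells, differed by -0.36 (SE 0.09, adjusted p = 0.274) and Frat2, a regulator of Wnt signalling, by -0.85 (SE 0.18, adjusted p = 0.125). Btla lay at 3.43 to 3.90, in the background range on all arrays. Zfp87 and Zfp472, which encode zinc finger proteins, differed by -0.55 (SE 0.12, adjusted p = 0.114) and -0.97 (SE 0.23, adjusted p = 0.238).

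Further probe sets of the same genes were compared where the array has them. Of the 33 genes, 14 have several probe sets, and 26 of their 28 further probe sets had a difference of the same sign. In 18 the groups did not overlap in the same direction, and 5 passed in the fit over all probe sets: the second ones of Nfkbie, Nupr1, Traf1, Cd40 and Kdm6b. Both Nfkbie probe sets gave nearly the same rise, 1.17 and 1.16. The Socs3 and Marcksl1 probe sets were all higher with separate groups. Opposite values were found for a Pvr probe set (-0.06) and a Tma16 probe set (-0.01). The further Ddhd1 probe sets were weak, at 0.17, 0.30 and 0.26 against 1.03 for the one kept. So were a Pim3 probe set (0.20) and other Pvr probe sets (0.12 and 0.26). A Kdm6b probe set differed by 0.56 with overlapping groups. When all probe sets of a gene were averaged in place of taking the brightest, Pvr differed by 0.34, Ddhd1 by 0.44, Tma16 by 0.54, Pim3 by 0.57 and Zc3h12c by 0.89, and none of these 5 passed.

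The arrays of a group did not contribute equally. Estradiol replicate 2 was the highest of its group in 23 of the 32 genes that rose and estradiol replicate 1 the lowest in 20, while control replicate 1 was the highest of its group in 16 and control replicate 3 the lowest in 16. Leaving out estradiol replicate 2 left 10 genes past the threshold: Nfkbie, Il12b, Cxcl10, Il6, Ptgs2, Traf1, Ifnb1, Cd40, Il23a and Rel, which were also the 10 that passed in each of the 6 fits that left out 1 c-kit+ array. Without estradiol replicate 3, 21 genes passed, and Il1a, Il1b, Pim3, Pvr, Casp4, Socs3 and Csf2 were among those that did not. Leaving out control replicate 1, control replicate 2, control replicate 3 or estradiol replicate 1 gave 33, 25, 45 and 28 genes. Socs3 passed in none of the 6 fits, and Csf2, Casp4, Mthfs, Marcksl1 and Rasgef1b in 1 each. With the spread estimated from the c-kit+ arrays alone only Nfkbie and Cxcl10 passed. The direction of the change stayed the same for all 33 genes in these fits. It could not have changed, because the groups of each gene do not overlap, so it says nothing about stability.

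The same contrast was made on the CD44+ arrays; the labels do not say if both came from the same cultures. There 51 genes rose (0.28%) and 2 fell (0.011%), and 25 genes passed in both fractions, which is 75.8% of the 33 and 47.2% of the 53. All 33 genes had the same sign in both fractions, and the change was larger in the c-kit+ fraction for 16 of them. The difference between the 2 estradiol effects passed for 0 genes over the whole array in limma, and 296 (1.63%) had an unadjusted p under 0.05 for it. Among the 33, only Il23a had one: its rise of 1.08 in the c-kit+ fraction stood against 0.57 in the CD44+ fraction, a difference of 0.51 (95% interval 0.09 to 0.93, unadjusted p = 0.0203, adjusted p = 1.0). For the other 32 genes the 95% interval of that difference included 0. That does not show that the fractions respond alike, since the interval for Il6 ran from -0.12 to 1.51 and that for Csf2 from -0.25 to 0.69.

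The 8 genes that passed in the c-kit+ fraction and not in the CD44+ fraction were also higher or lower there in the same direction. In CD44+ arrays Csf2 differed by 0.64, Rasgef1b by 1.05, Ifitm1 by 0.79, Gm6377 by 0.79, Ddhd1 by 0.68, Tma16 by 0.65 and Hmga2-ps1 by -0.78. For the leading genes the values were close: Nfkbie rose by 1.17 and 1.19, Cxcl10 by 1.56 and 1.57, and Il12b by 2.32 and 2.37 in the c-kit+ and CD44+ fractions. Icam1 rose by 0.79 and 1.04 and Casp4 by 0.71 and 1.00, with intervals of the difference from -0.56 to 0.06 and from -0.66 to 0.07.

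**Figure D4:**
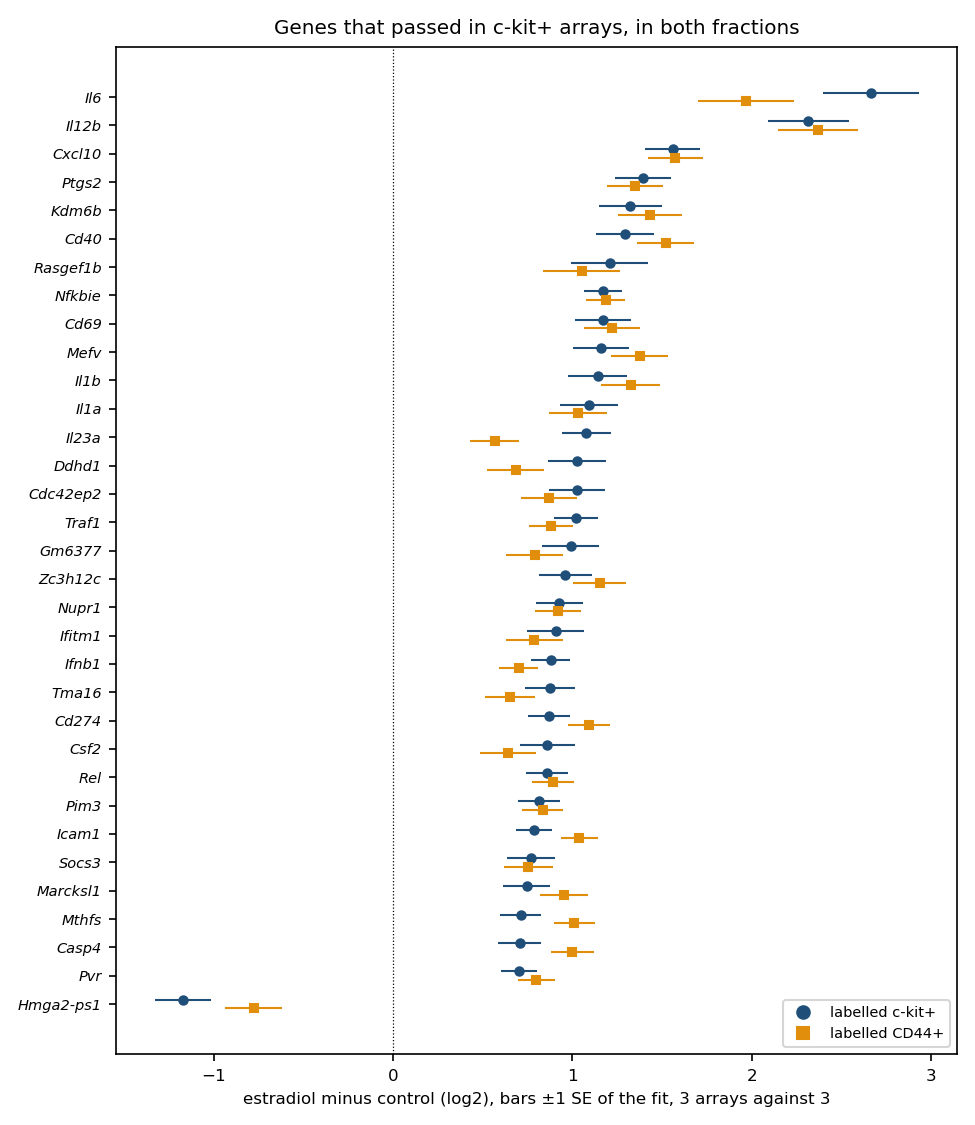
Difference between estradiol and control (log2, bars ±1 SE of the fit, 3 arrays against 3) for the 33 genes that passed on the c-kit+ arrays, in the c-kit+ and CD44+ fractions. All 33 have the same sign in both, and Il23a is the gene whose difference between fractions is largest for its error.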

How the data were processed

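Per the labels, total RNA of each sample was amplified in a pair of cycles, labelled with biotin and hybridized to an Affymetrix mouse array. The authors deposited log2 values computed with RMA, per the submitters' processing notes, with no version given in the sources used here. Of 45101 probe sets, 64 were controls, 34945 named 1 gene in the platform annotation, 932 named several and 9160 were unnamed here. For each of 18193 genes the probe set of highest mean level on the 12 arrays was kept. Values entered as deposited, with no filter.

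The test was limma 3.58.1 under R 4.3.3, fitted over all 12 arrays, with 1 mean for each of the 4 groups, empirical Bayes moderation without a trend and Benjamini-Hochberg adjustment over all genes (threshold 0.05). Contrasts were estradiol minus control in each fraction and the difference of these effects. The pipeline was tested on simulated data. Python 3.11.15 with pandas 2.3.3 and matplotlib 3.10.9 gave the tables and figures.

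The arrays, the 30 gene lists and the rule for named genes were chosen with earlier results of these data known. Of 542 list entries 497 were measured (475 genes, 22 of them in more than 1 list). The rule names every gene that passed, the 12 of smallest p in each direction that did not, up to 4 members per list (by smallest p), Kit and Cd44, and the receptors Esr1, Esr2, Gper1 and Pgr. Beyond this rule, further cell markers, Greb1, Icosl, Il10, Nfkbia, Rela, Relb and Tnf were named after their values were seen. The alternatives tried were probe sets averaged per gene, every probe set, genes at or above the median level, quantile normalization, median centring, robust moderation with a trend, weights for arrays, the replicate number as a block, a Gapdh covariate, the c-kit+ arrays alone, other thresholds and leaving out each c-kit+ array.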

Additional observations from a re-analysis of the deposited data

Results flagged for a closer look

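Probe sets that name no gene or several genes took no part in the comparison of genes. In a limma fit over all 45037 probe sets that are not controls, 46 passed at an adjusted p under 0.05, and 6 of these were among the 10092 that name no gene or several. Of these 6, 4 were higher and 2 lower on the estradiol arrays labelled c-kit+. The probe set shared by Isg15, an interferon-induced ubiquitin-like protein, and Gm9706 read 7.77, 7.99 and 7.57 on control and 8.56, 9.22 and 8.79 on estradiol arrays, a rise of 1.08 (SE 0.18, adjusted p = 0.0482). The signal of the pair cannot be split. An unnamed probe set read 5.48, 5.02 and 6.06 on control and 7.01, 7.47 and 6.87 on estradiol arrays, a rise of 1.60 (SE 0.25, adjusted p = 0.0309). Both falls were larger than that of Hmga2-ps1: 1 unnamed probe set differed by -1.93 (SE 0.27, adjusted p = 0.0162) and another by -1.48 (SE 0.22, adjusted p = 0.0222).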

How the results depend on the processing

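The count of genes that passed on the c-kit+ arrays was 33. It was 55 with array weights, 62 with the replicate block, 2 on the c-kit+ arrays alone, 19 at an adjusted p threshold of 0.01 and 54 at 0.1. Leaving out 1 array gave 10 to 45 genes. It was 39 with probe sets averaged per gene, 33 among genes at or above the median level, 45 after quantile normalization, 28 after median centring, 44 with a trend and robust moderation, 37 with the Gapdh covariate and 41 over every probe set naming 1 gene. All 33 genes were among those called with the block and with array weights. Falls numbered 1 in the main fit and 0 to 7 over the alternatives. There were 4 each with array weights, with the block and over every probe set naming 1 gene, and 7 without control replicate 3. The replicate numbers were not taken as pairs: same-numbered control and estradiol arrays correlated at 0.345, 0.092 and 0.253 in their deviations, although each matched its own number best. The difference of effects gave 0 genes in each fit where it was computed. No named gene's call reversed, and 2 of the 33, Nfkbie and Cxcl10, passed in all alternatives. Of 450 list medians 8 moved by more than the spread between replicates; the median of the surface molecules was 0.81 among brighter genes. Over the alternatives the median ran from 0.49 to 0.75 for inflammatory cytokines, 0.47 to 0.68 for NF-kappaB genes and 0.21 to 0.28 for AP-1 factors. With 3 arrays a group, small changes cannot be resolved, and levels near background have no firm fold.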
